A study of Homo sapiens with 4 samples.

Results

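Macrophages treated with interleukin-10 (IL-10), the M2c state, were compared with unpolarised M0 macrophages, both derived from the THP-1 cell line, which was established from a human acute monocytic leukemia. The genes described are all annotated genes with a detection p-value below 0.01 on the M2c array, on the M0 array or on both, which were 9604 of 20045 genes with a probe (47.9%). The detection p-value is the share of negative-control probes that read at least as bright as the probe. The study holds 4 Illumina bead arrays of total RNA, 1 for each group. The M2c cells had received IL-10, the M1 cells interferon-gamma with lipopolysaccharide, the M2a cells interleukin-4 and the M0 cells no polarising agent. The labels state neither dose nor duration of any agent, nor how the monocyte-like THP-1 cells were differentiated. In what follows, a gene detected on M2c alone or on M0 alone is so among these 2 arrays. All groups share 1 leukemia line, so a value describes that line and not primary macrophages.

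IL-10 binds a receptor made of the chains IL10RA and IL10RB, whose kinases JAK1 and TYK2 activate the transcription factor STAT3. In macrophages this pathway is known for holding down inflammatory mediators and for raising its own feedback inhibitor SOCS3, Fc and scavenger receptors and complement C1q. C1q is the recognition molecule of the classical complement pathway and is made largely by macrophages, from the chains C1QA, C1QB and C1QC.

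Each side of the comparison was 1 array, so no test was possible, no difference has a replicate check, and array, culture, RNA preparation and group cannot be told apart. A gene was said to rise or fall when its normalized log2 value differed by at least 1.0 (2-fold) and it was detected on at least 1 of the 2 arrays. Differences are M2c minus M0 on the log2 scale after background correction and quantile normalization. Raw signals are the deposited non-normalized intensities, which still contain the background. The M2c array detected 13673 of 47228 probes (29.0%) and the M0 array 14818 (31.4%), with median raw signals of 110.9 on M2c and 110.7 on M0. The dimmest detected probe read 136.1 on M2c and 127.6 on M0. The M0 array therefore resolved slightly dimmer genes, and 188 genes were detected on M2c alone against 669 on M0 alone. Just inside the detection threshold lay 178 genes with a detection value of 0.00909 and a brighter signal of 127.6 to 139.0. Just outside it lay 106 genes at 0.01039 to 0.01169, with brighter signals of 126.9 to 136.0, so the threshold separates signals that overlap.

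The label of the cells was checked first against markers. Of 12 monocyte and macrophage markers 11 could be measured, of which 10 were detected on M2c and 11 on M0. Their raw signals summed to 64320.7 on M2c and 79885.4 on M0, and none of the 11 changed by 2-fold. CD14, the lipopolysaccharide co-receptor, read 15201.5 on M2c and 18977.3 on M0. CSF1R, the receptor of macrophage colony-stimulating factor, read 7482.3 on M2c and 9164.2 on M0. Most of these markers thus lay slightly lower on M2c, with a median of -0.24, and their part in the other differences was not tested. None of 6 fibroblast and 6 epithelial markers was detected on either array. Among T and NK cell markers only NKG7 was detected, at 524.8 on M2c and 828.4 on M0, while the T cell receptor chains CD3D, CD3E and CD3G were not. Of 4 B cell markers with a probe 1 was detected on M2c and 2 on M0. Of 5 erythroid and platelet markers with a probe 0 were detected on M2c and 1 on M0. In bulk RNA, fewer cells making a transcript and less transcript per cell cannot be told apart.

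IL-10 polarisation left most of the detected transcriptome near its M0 level. Of the 9604 genes 65 rose (0.677%) and 43 fell (0.448%), together 108 (1.12%). At these shares a short gene list would hold few or no changes, and the list counts below stand beside them. The median absolute difference was 0.19 on the log2 scale, and 73.2% of genes lay within 1.25-fold and 93.1% within 1.5-fold. By 3-fold or more, 11 genes rose (0.115%) and 6 fell (0.0625%). Of the 65 rises 43 were of genes detected on both arrays (0.492% of the 8747 such genes) and 22 of genes detected on M2c alone. Of the 43 falls 22 were of genes detected on both arrays (0.252%) and 21 of genes detected on M0 alone. A gene detected on 1 array alone had to be dimmer on the other, so its change is given below as a bound.

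**Figure D1:**
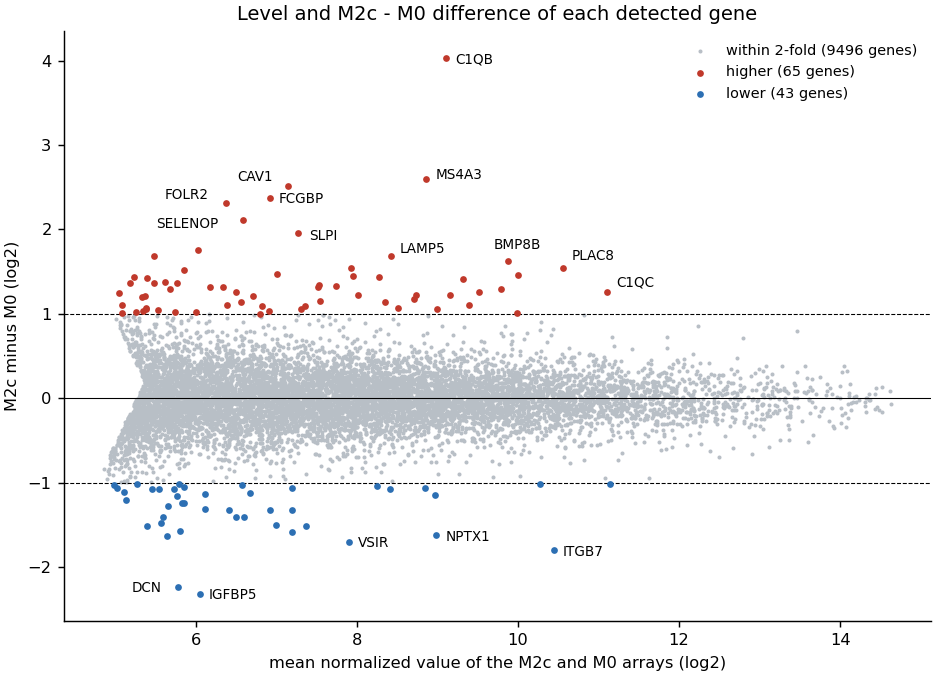
Each point is 1 of the 9604 detected genes, with the mean normalized log2 value of the M2c and M0 arrays on the x axis and M2c minus M0 on the log2 scale on the y axis. The 65 higher genes are red and the 43 lower genes blue, dashed lines mark 2-fold, and C1QB stands alone at 4.03.

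The share of genes past 2-fold depended on signal. With the genes in 5 equal groups by level, 2.19% of the dimmest group changed and 0.469% of the brightest. The dimmest group held 22 of the rises and 20 of the falls, and the brightest 6 rises and 3 falls. The median absolute difference was 0.26 in the dimmest and 0.15 in the brightest group. Near the threshold, 17 rises and 15 falls lay between 1.0 and 1.1, while 35 genes lay between 0.9 and 1.0 above M0 and 26 by as much below it. With the authors' own normalized intensities, which keep the background, 19 genes rose (0.198%) and 3 fell (0.0312%), so the share of changes that were rises was 86.4% there against 60.2% after background correction.

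**Figure D2:**
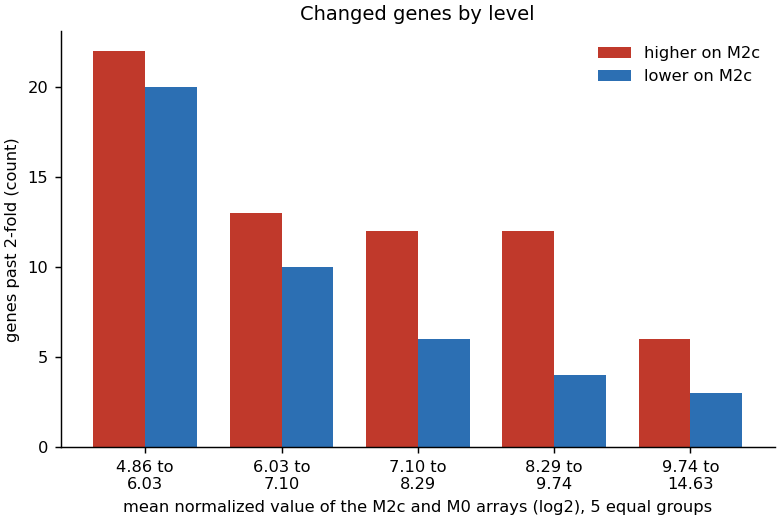
Bars give the number of genes past 2-fold (y axis, count) in 5 equal groups by mean normalized log2 value (x axis, dim to bright), red for genes higher on M2c and blue for genes lower. The dimmest group has 22 higher and 20 lower genes and the brightest 6 and 3.

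A core of 21 genes, detected on both arrays, passed 2-fold in the same direction under the main processing and under all 5 other ways of treating the values. It held 18 rises: C1QB, MS4A3, CAV1, FCGBP, SELENOP, SLPI, LAMP5, BMP8B, PLAC8, C1QA, EBI3, BCL2, ADORA3, CCL8, PRTN3, C1QC, IGFBP7 and MT1G. The 3 falls were ITGB7, VSIR and NPTX1. Among genes detected on 1 array alone, FOLR2 also passed under all of them. Each other change named below missed 2-fold under at least 1 of these treatments.

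**Figure D3:**
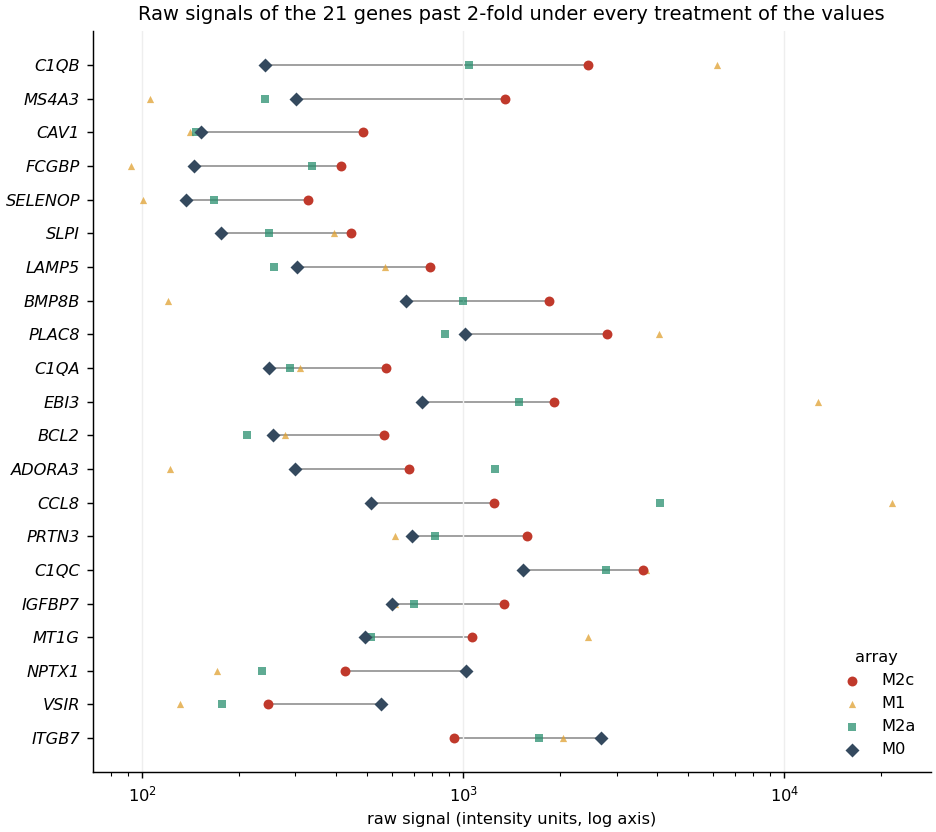
Raw signals (x axis, intensity units, log scale) of the 21 genes that passed 2-fold under all treatments of the values, on the M2c, M1, M2a and M0 arrays, with a grey line joining M2c and M0. For C1QB the M2c array lies between M2a and M1, whereas MS4A3 and CAV1 have their highest signal on M2c. Raw signals are not normalized between arrays. SLPI and LAMP5 are brighter on M2c than on M1 here, but lower in normalized log2 value (8.25 against 8.82 and 9.262 against 9.385).

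All 3 chains of C1q rose. C1QB had a raw signal of 2437.7 on M2c and 241.1 on M0, a difference of 4.03 on the log2 scale (16.3-fold) and the largest of any gene in the comparison. C1QA read 573.5 on M2c and 247.3 on M0, a difference of 1.54. C1QC read 3617.3 on M2c and 1533.8 on M0, a difference of 1.26. The chains therefore moved the same way by unequal amounts, although signals of different probes cannot be set against each other. On the M1 array they read 6172.3 for C1QB, 309.6 for C1QA and 3698.1 for C1QC, and on the M2a array 1039.4, 289.1 and 2790.8 in the same order. C1QB and C1QC were thus as high or higher on M1, and only C1QA was highest on M2c. All 3 genes lie side by side on chromosome 1 in GRCh38.p14, C1QA at 22636463 to 22639678, C1QC at 22643633 to 22648108 and C1QB at 22653236 to 22661637.

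The promoters of C1QA and C1QB are printed because both of these neighbouring genes rose. Each was read by 1 probe, and whether their unequal rises lie in the genes or in the probes was not tested. They are the 250 bases before each RefSeq gene start, on the plus strand of GRCh38.p14, at chr1:22636213-22636462 for C1QA and chr1:22652986-22653235 for C1QB. Capitals mark TTCNNNGAA, the general pattern of STAT binding sites, searched on both strands.
C1QA: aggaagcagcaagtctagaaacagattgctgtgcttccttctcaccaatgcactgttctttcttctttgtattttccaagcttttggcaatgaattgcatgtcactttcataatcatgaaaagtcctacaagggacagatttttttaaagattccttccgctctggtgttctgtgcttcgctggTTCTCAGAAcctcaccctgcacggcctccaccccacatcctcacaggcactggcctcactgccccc
C1QB: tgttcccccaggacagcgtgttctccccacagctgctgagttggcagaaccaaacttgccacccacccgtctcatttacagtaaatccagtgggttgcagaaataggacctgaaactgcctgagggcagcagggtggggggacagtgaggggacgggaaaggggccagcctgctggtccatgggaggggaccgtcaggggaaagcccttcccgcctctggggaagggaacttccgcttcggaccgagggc
The C1QA stretch holds the pattern once, centred 62 bases before the start, and the C1QB stretch does not hold it. The gene with the largest rise thus has none of these letters in this window, from which nothing follows about STAT binding.

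The same pattern was looked for from 250 bases before to 50 bases after the start of every gene in the RefSeq promoter table. It stood in 8 of the 48 risen genes with an entry (16.7%) and in 1 of the 29 fallen genes with an entry (3.45%). It stood in 490 of the 7909 detected genes with an entry (6.2%) and in 2152 of all 27305 entries (7.88%). The narrower TTCCNGGAA, whose every match is also a match of the first pattern, stood in 0 of the 48, 0 of the 29, 97 of the 7909 (1.23%) and 332 of the 27305 (1.22%). Besides C1QA, the risen genes with the first pattern were CCL8, CEMP1, DANCR, ID3, LAMP5, SESN3 and TUBD1, and the fallen one was PRL. The match and its flanks in genes that rose under every treatment are shown for comparison with C1QA, with the match in capitals.
CCL8: actcagcataTTCAAGGAAggtcttactt
LAMP5: ggtattaagtTTCTCAGAAcagactcatc
C1QA: gcttcgctggTTCTCAGAAcctcaccctg
In GRCh38.p14 the CCL8 window is chr17:34319334-34319362, 87 bases before the start, and the LAMP5 window is chr20:9514450-9514478, 126 bases before it, both on the plus strand. The C1QA window is chr1:22636387-22636415. LAMP5 and C1QA carry the same 9 bases. A match describes letters and no binding was measured.

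The remaining complement genes did not follow C1q. Of 18 complement genes detected 3 rose and 2 fell (median -0.07, against -0.01 over all detected genes). The shares over all detected genes were 0.677% risen and 0.448% fallen. C3, the central component of the cascade, read 168.3 on M2c and 255.0 on M0, a fall of 1.12. CFP, which encodes properdin, the stabiliser of the alternative pathway convertase, was detected on M0 alone, at 175.6 against 116.9 on M2c, and was at least 1.79-fold lower on M2c. Both falls were of dim genes and neither passed 2-fold in the authors' table, where C3 differed by -0.56 and CFP by -0.47. The anaphylatoxin receptor C5AR1, looked up after the values were seen, was brighter and differed by -0.47 (1488.9 on M2c and 1895.4 on M0).

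The machinery of IL-10 signalling itself stayed near its M0 level. Of 25 detected members of the receptor and STAT3 list 0 rose and 1 fell, with a median of -0.20. Over all detected genes 0.677% rose and 0.448% fell, so the list did not stand apart by its counts. IL10RA read 473.2 on M2c and 498.8 on M0, and IL10RB 5415.5 on M2c and 6302.1 on M0. JAK1 read 298.4 on M2c and 346.5 on M0, and TYK2 1984.8 on M2c and 1994.4 on M0. STAT3 read 780.8 on M2c and 797.1 on M0, a difference of -0.14, which was -0.43 as the mean of its detected probes. Receptor chains, kinases and STAT3 were therefore measured on both arrays and differed by less than 1.5-fold on the probes that stand for them.

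SOCS3, the feedback inhibitor of the pathway, was not detected on M2c (115.2) and barely on M0 (141.4), at least 1.13-fold lower on M2c, so it showed no rise. BCL3, NFIL3 and SBNO2, each known as an IL-10-induced regulator in macrophages, differed by -0.36, -0.41 and -0.11. The gene of IL-10 read 1810.3 on M2c and 1437.9 on M0, a difference of 0.27. HMOX1, which degrades haem and is known as an IL-10 target, read 2055.0 on M2c and 1158.0 on M0, a difference of 0.82 that missed the 2-fold rule. IL21R differed by 0.79. The one member that fell was IL7R, the receptor of interleukin-7, at 136.2 on M2c and 209.0 on M0 (-1.31), close to the background on both arrays and at 1161.8 on M1. The exposure time is not given, so early and late members of the pathway cannot be told apart.

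Genes known to be raised by IL-10 or glucocorticoids in macrophages held the largest group of rises. Of 34 detected members 10 rose and 0 fell (median 0.33): C1QB, C1QA, C1QC, FOLR2, SELENOP, ADORA3, MSR1, MARCO, HSD11B1 and FCGR2B. The number was 8 among genes detected on both arrays and 6 in the authors' table. Over all detected genes 0.677% rose and 0.448% fell. The list was chosen with earlier results of these data known, so its count is no independent check. FOLR2, the folate receptor of tissue macrophages, was detected on M2c at 311.8 and not on M0 at 126.0, at least 4.81-fold higher. On M2a FOLR2 read 361.6. SELENOP, the secreted selenium carrier, read 328.7 on M2c and 137.2 on M0, a difference of 2.11. ADORA3, an adenosine receptor, read 677.6 on M2c and 299.4 on M0 (1.43).

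Of the scavenger receptors on this list MSR1 and MARCO passed the rule, both from low signals. MSR1, scavenger receptor A, read 241.5 on M2c and 143.1 on M0 (1.32), but its difference was 0.66 as the mean of its detected probes. MARCO, a scavenger receptor for bacteria and particles, was detected on M2c alone (181.9 against 120.5 on M0), at least 2.09-fold higher. HSD11B1, which regenerates active glucocorticoid, read 417.5 on M2c and 227.5 on M0 (1.16), and a further detected probe gave 1.10. CD163, the haemoglobin scavenger receptor, and MERTK, a receptor for apoptotic cells, were added once the values had been seen. CD163 read 2162.4 on M2c and 1408.6 on M0 on its brightest probe (0.60), while a dimmer probe read 707.6 on M2c and 373.6 on M0 and passed 2-fold at 1.06. MERTK read 1943.3 on M2c and 1533.9 on M0 (0.28). Of 20 detected genes for the uptake of apoptotic cells 0 rose and 0 fell (median -0.02).

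The Fc group held 2 rises and 0 falls among 11 detected genes (median 0.20), beside 0.677% and 0.448% of all detected genes. FCGBP, a secreted protein that binds IgG, read 414.5 on M2c and 145.4 on M0, a difference of 2.37. FCGR2B, the inhibitory IgG receptor, read 696.9 on M2c and 368.8 on M0 (1.07). Its other detected probes gave 0.95 and 0.19, and the array cannot fully separate it from the near-identical FCGR2C. FCGR2B was therefore at the edge of the rule, and FCGBP clear of it.

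Genes of neutrophil and monocyte precursors, which THP-1 cells express as a leukemia line, gave some of the brightest rises. MS4A3, a membrane protein of granulocyte and monocyte progenitors, read 1344.3 on M2c and 300.2 on M0, a difference of 2.60, and its other detected probes gave 2.58 and 1.02. On the M1 and M2a arrays it read 105.7 and 241.7, so it was raised above M0 on M2c alone. PRTN3, the granule proteinase 3, read 1583.3 on M2c and 691.1 on M0 (1.30). Of 16 detected members of the immature myeloid list 2 rose and 0 fell, with a median of 0.36, beside 0.677% and 0.448% of all detected genes. All 16 were detected on M0 but only 12 on M2c. Members below the rule, looked up after the values were seen, included the transcription factor MYB at 2762.3 on M2c and 1408.6 on M0 (0.99). The granule proteases CTSG and ELANE differed by 0.80 and 0.72. CTSG read 14001.7 on M2c and 8649.7 on M0, so that it was among the bright transcripts of both arrays. NKG7, a cytotoxic granule protein of the same list, differed by -0.90, so the list held differences of both signs.

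BCL2, PLAC8, NFE2 and IRAG2 also rose and belong to none of the lists. BCL2, the inhibitor of apoptosis, read 566.5 on M2c and 255.1 on M0 (1.45), and a further detected probe gave 1.15. PLAC8, a small cysteine-rich protein of myeloid cells, read 2799.3 on M2c and 1012.2 on M0 (1.55), and its other probe gave 1.95. NFE2, a transcription factor of erythroid cells and megakaryocytes, read 435.6 on M2c and 216.6 on M0 (1.35). These rises differed in how they compared with the other polarised states. NFE2 was brighter still on M2a (1279.7), PLAC8 on M1 (4054.8), and BCL2 read 279.3 on M1 and 211.2 on M2a. After normalization BCL2 differed from M0 by 0.97 on M1 and by -0.30 on M2a, so it was also higher on M1, just short of 2-fold. IRAG2, a membrane protein of the endoplasmic reticulum, read 346.2 on M2c and 174.2 on M0 (1.47). Of 44 detected cell cycle genes 1 rose and 0 fell (median 0.12), beside 0.677% and 0.448% of all detected genes. The 1 was CCNA1, the cyclin A of germ cells and myeloid leukemia, at least 2.55-fold higher on M2c (204.8 against 122.1 on M0, where it was not detected).

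Protease inhibitors and metal-binding proteins added rises. SLPI, a secreted inhibitor of neutrophil elastase, read 446.5 on M2c and 175.3 on M0 (1.96). SERPINA1, which encodes alpha-1-antitrypsin, read 430.3 on M2c and 217.2 on M0 (1.32), and a further probe gave 1.28. They were the 2 rises, with 0 falls, among 13 detected protease inhibitors, beside 0.677% and 0.448% of all detected genes. The median of the 13 was -0.06. The inhibitor genes thus did not rise as a group. Among 12 detected metallothioneins and zinc transporters 1 rose and 0 fell, with a median of 0.43, the highest of the 27 lists. MT1G, a metallothionein, read 1064.5 on M2c and 493.9 on M0 (1.23). MT1H, MT1X, MT1E and MT2A, looked up after the values were seen, differed by 0.74, 0.69, 0.67 and 0.66. Metallothionein probes can share signal between near-identical genes, so these are not separate observations.

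Membrane coats, lysosomal proteins and BMP signalling each gave isolated rises. CAV1, the main coat protein of caveolae, read 486.9 on M2c and 152.5 on M0 (2.52), while its dimmer probe, detected on M2c alone, gave 0.69. CAV1 was the 1 rise among 8 detected caveolar genes (median -0.11). The shares over all detected genes were 0.677% risen and 0.448% fallen. LAMP5, a member of the lysosome-associated membrane protein family, read 789.6 on M2c and 302.9 on M0 (1.68). Of 41 detected proton pump and lysosomal genes 1 rose and 1 fell (median -0.05). The fall was ATP6V0D2, a proton pump subunit of macrophages and osteoclasts, at 151.3 on M2c and 252.0 on M0 (-1.40). Both were exceptions in a list that stayed near M0. BMP8B, a ligand of the bone morphogenetic protein family close in sequence to BMP8A, read 1844.3 on M2c and 660.8 on M0 (1.62). On M1 it read 120.3. ID3, a BMP target that blocks basic helix-loop-helix factors, was at least 2.05-fold higher on M2c (180.3 against 117.0 on M0). Of 17 detected BMP and TGF-beta genes these 2 rose and 0 fell (median 0.01).

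**Figure D4:**
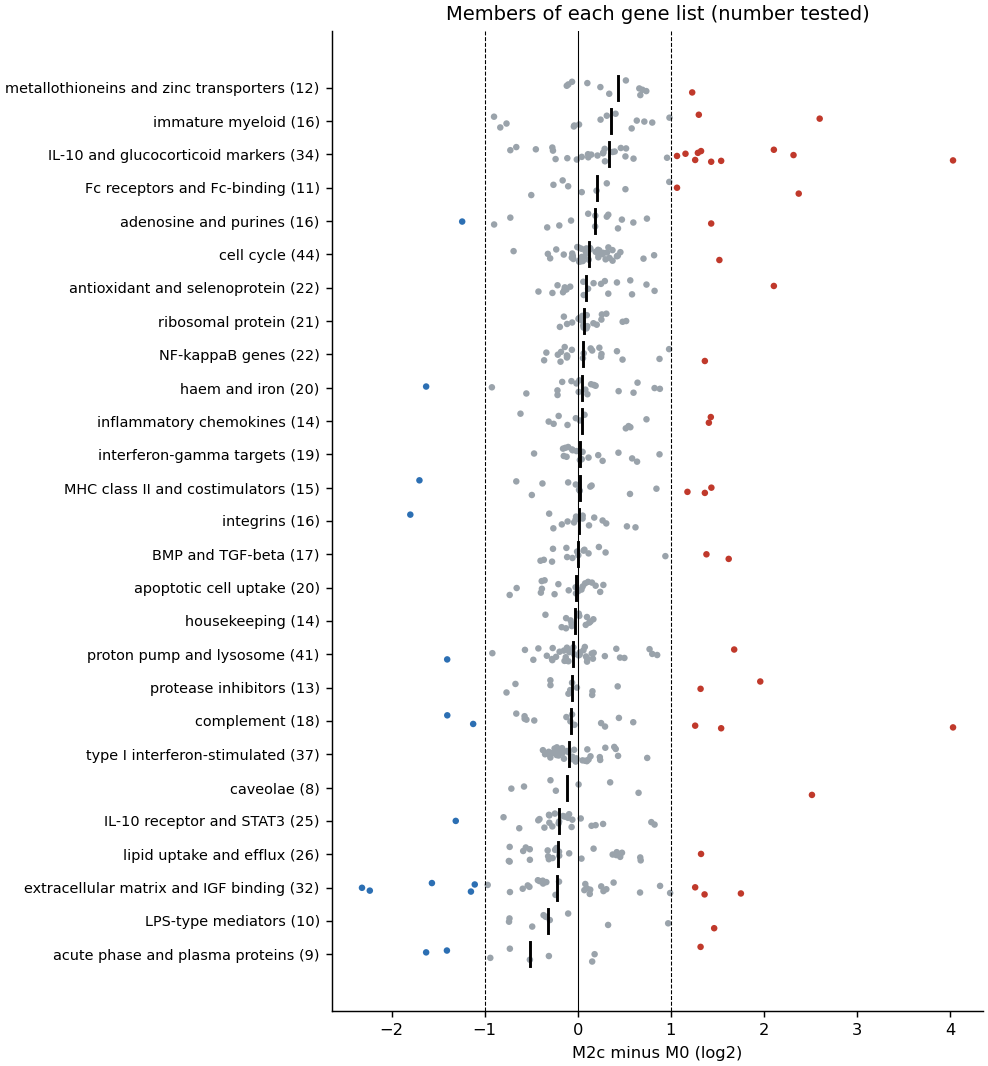
Each point is a detected member of a gene list, with M2c minus M0 on the log2 scale on the x axis, red where it rose and blue where it fell, the black bar the list's median and the dashed lines 2-fold. The medians run from -0.51 for acute phase genes to 0.43 for metallothioneins, and no list moved as a whole by 2-fold.

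Inflammatory mediators were not uniformly lower on the M2c array. Of 25 such mediators of the lipopolysaccharide type with a probe 10 were detected, of which 1 rose and 0 fell (median -0.32). The shares over all detected genes were 0.677% risen and 0.448% fallen. Of the 4 groups only the M1 cells were given lipopolysaccharide. Whether IL-10 holds down mediators that lipopolysaccharide induces was therefore not tested. EBI3, the shared subunit of interleukin-27 and interleukin-35, read 1909.6 on M2c and 742.4 on M0 (1.47), and 12727.0 on M1. IL1B, TNF and IL1RN were added once the values had been seen. IL1B, the precursor of interleukin-1 beta, read 841.3 on M2c and 456.5 on M0 (0.97). TNF read 335.4 on M2c and 377.4 on M0 (-0.34), and IL1RN, the interleukin-1 receptor antagonist, 591.9 on M2c and 853.2 on M0 (-0.74). These members lay on both sides of M0 and within 2-fold of it.

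Chemokines and NF-kappaB genes gave few changes in number, though a larger share than the 1.12% of all detected genes past 2-fold. These short lists were chosen with earlier results known. CCL8, a monocyte attractant, read 1247.7 on M2c and 513.9 on M0 (1.41), and 21710.5 on M1 and 4093.8 on M2a. CXCL3, a neutrophil attractant, was detected on M2c alone among the 2 arrays (168.1 against 109.4 on M0) and was at least 1.79-fold higher. They were the 2 rises, with 0 falls, among 14 detected chemokines (median 0.05). Of 22 NF-kappaB genes 1 rose and 0 fell (median 0.06), the costimulator CD80. Of 37 type I interferon-stimulated genes 0 rose and 0 fell (median -0.10), and of 19 interferon-gamma targets 0 rose and 0 fell (median 0.02). In the type I list IFI44L lay farthest from M0, at 1987.2 on M2c and 1174.7 on M0 (0.75).

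Antigen presentation and costimulation held changes in both directions. CD86, a ligand of CD28, read 808.9 on M2c and 396.6 on M0 (1.18), and 0.86 as the mean of its detected probes. CD80, the other such ligand, was detected on M2c alone (171.8 against 113.4 on M0), at least 1.87-fold higher. HLA-DPA1, an MHC class II chain, was near the limit of detection on M2c at 159.5, against 103.3 on M0, and was at least 1.61-fold higher. VSIR, which encodes the inhibitory receptor VISTA, read 246.5 on M2c and 554.6 on M0 (-1.70). Of 15 detected genes of this group 3 thus rose and 1 fell (median 0.02), beside 0.677% and 0.448% of all detected genes. VSIR was lower still on M1 (130.8) and M2a (176.7), so it fell against M0 on each polarised array, which all share the 1 M0 array.

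Probes of HLA-DRA, another MHC class II chain, disagreed. The brightest probe, which stands for the gene, read 1591.4 on M2c and 1391.2 on M0 (0.14). A second probe read 1370.3 on M2c and 286.2 on M0, a difference of 2.72. On M1 the probes read 16186.7 and 19544.8, and on M2a 2628.4 and 3529.6, in the same order. The gene was counted within 2-fold on its brightest probe, but since the probes differed that much no direction is given for it. It was singled out after the values were seen. Among 2627 other detected probes of genes counted within 2-fold, 3 were higher and 8 lower by 2-fold or more (0.419%), the 3 being those of HLA-DRA, CD163 and MLC1.

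The falls were fewer and mostly of dim genes. ITGB7, the integrin beta 7 chain of lymphocyte homing receptors, read 932.2 on M2c and 2688.9 on M0, a fall of 1.80 on the log2 scale. Of 16 detected integrin genes it was the 1 that fell, and 0 rose (median 0.02), beside 0.448% and 0.677% of all detected genes. On M1 it read 2047.6 and on M2a 1715.8, so the M2c array had its lowest signal. NPTX1, a pentraxin known from neurons, read 428.8 on M2c and 1018.5 on M0 (-1.62), and 170.3 on M1 and 236.8 on M2a. GNLY, the cytotoxic granule protein granulysin, read 188.0 on M2c and 370.5 on M0 (-1.58). IL17RA, the interleukin-17 receptor chain, read 369.2 on M2c and 622.9 on M0 (-1.08). ITGB7, NPTX1 and VSIR were the falls that no treatment of the values took below 2-fold.

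Another 6 falls were of genes with low signals on both arrays. EPHB1, an ephrin receptor kinase, read 177.0 on M2c and 328.2 on M0 (-1.50). PID1, a modulator of insulin signalling, read 198.7 on M2c and 345.9 on M0 (-1.32). INHBE, an activin subunit, read 148.4 on M2c and 238.7 on M0 (-1.32). PYROXD2, SRPX and SNCAIP fell by 1.51, 1.32 and 1.14. In the authors' table the differences of these 6 genes ran from -0.93 for PYROXD2 to -0.46 for SNCAIP, so all were short of 2-fold there. PID1 was lower still on M1 (103.3) and M2a (113.8), while PYROXD2 was highest on M2a at 1419.3. GPR183, an oxysterol receptor that guides cell migration, does not follow from the naming rule and was picked with its values in view. It read 462.9 on M2c and 790.2 on M0 (-1.06), and its other probes gave -1.03 and -0.95.

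Matrix and IGF-binding genes split, with 3 rises and 5 falls among 32 detected (median -0.22), beside 0.677% and 0.448% of all detected genes. IGFBP7, a secreted insulin-like growth factor binding protein, read 1339.4 on M2c and 601.6 on M0 (1.26). COL22A1, a collagen chain, was detected on M2c at 230.6 and not on M0 at 123.8, at least 3.10-fold higher, and CEMIP, which breaks down hyaluronan, was at least 2.26-fold higher. The falls included IGFBP5, at 116.8 on M2c, where it was not detected, and 252.2 on M0, at least 3.36-fold lower. Its other detected probe gave -1.62. DCN, the proteoglycan decorin, was at least 2.72-fold lower (109.2 on M2c and 220.8 on M0), and SPOCK1, a testican, at least 2.18-fold lower. COL6A2, a collagen VI chain, read 486.0 on M2c and 879.2 on M0 (-1.15), and MMP8, the neutrophil collagenase, was at least 1.15-fold lower. COL6A1, its partner chain, looked up after the values were seen, differed by -0.73. The rises and falls of this list therefore include genes on each side that were measured on both arrays, IGFBP7 and COL6A2.

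Acute phase genes had the lowest median of the 27 lists, -0.51 over 9 detected genes, with 1 rise and 2 falls. The shares over all detected genes were 0.677% risen and 0.448% fallen. ORM1, an acute phase glycoprotein close in sequence to ORM2, read 156.1 on M2c and 262.5 on M0 (-1.40). HP, haptoglobin, which binds free haemoglobin, was detected on M0 alone (186.2 against 115.0 on M2c) and was at least 2.00-fold lower. SERPINA1 was the rise. HP was also the 1 fall among 20 detected haem and iron genes, of which 0 rose (median 0.05). In the adenosine and purine group ADORA3 rose and NT5E fell, among 16 detected (median 0.19). NT5E, the ecto-enzyme that makes adenosine, was at least 2.03-fold lower on M2c (128.0, not detected, against 187.3 on M0).

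Among the genes detected on 1 array alone, the remaining ones with a bound were weak. VCAM1, an adhesion molecule, was at least 2.08-fold higher on M2c (181.6 against 108.0 on M0), but read 3813.7 on M1. NOC2LP2, a pseudogene, was at least 1.97-fold higher. In the other direction CD1A, a lipid-presenting molecule, was at least 1.98-fold lower (126.8 on M2c and 184.9 on M0). VEGFA, the vascular growth factor, was at least 1.89-fold lower (131.3 on M2c and 180.5 on M0). APCDD1, SULF2 and POTEE were at least 1.85-fold, 1.80-fold and 1.79-fold lower. VCX3A and C11orf96 were detected on M2c alone and at least 1.90-fold and 1.88-fold higher, but their measured difference was within 2-fold and they were not counted as risen. Of the 22 rises on M2c alone 7 had a bound of 2-fold or more, and of the 21 falls on M0 alone 5 did.

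Other lists stayed near M0, as did the detected genes as a whole, of which 1.12% passed 2-fold. Of 26 detected lipid genes 1 rose, MSR1, and 0 fell (median -0.22). The efflux pump ABCA1 read 1606.6 on M2c and 2446.9 on M0 (-0.73). Of 22 antioxidant and selenoprotein genes SELENOP alone rose and 0 fell (median 0.09). Of 21 ribosomal protein genes 0 rose and 0 fell (median 0.06), and of 14 housekeeping genes 0 rose and 0 fell (median -0.03). ACTB and EEF1A1, housekeeping genes of the cytoskeleton and of translation, differed by -0.13 and -0.06, and EEF1A1 by 0.13 as the mean of its detected probes.

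Set beside the other polarised arrays, the rises on M2c were not confined to it. Of the 65 risen genes 37 had their highest normalized value on M2c, 19 on M1 and 9 on M2a. Of the 43 fallen genes 24 had their lowest value on M2c, 11 on M1 and 8 on M2a. SELENOP (100.3 on M1 and 167.8 on M2a) and BMP8B (994.3 on M2a) were highest on M2c. ADORA3 (1250.9 on M2a), COL22A1 (603.8 on M2a), FOLR2 (361.6 on M2a) and CD86 (1865.5 on M2a) were higher with interleukin-4. CD80 (1372.3 on M1) and HLA-DPA1 (3814.3 on M1) were higher on M1 than on M2c. These counts describe single arrays that are all set against the same M0 array.

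Second probes gave a partial check within the arrays. Of the 65 risen genes 13 had other detected probes, whose mean lay on the same side of M0 in all 13 and past 2-fold in 5. Of the 43 fallen genes 4 had such probes, whose mean lay on the same side in all 4 and past 2-fold in 1. A second probe counted when detected on either array, so a probe detected on 1 array alone had its direction largely set by that filter. This was so for the second probes of CAV1 and CD84 among the rises and of GNLY and IGFBP5 among the falls. Over 1949 genes with 2 or more probes detected on both arrays, the SD of the difference between probes of a gene had a median of 0.13 and a 95th percentile of 0.41. This spread is between probes on the same arrays and says nothing about the spread between cultures.

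**Figure D5:**
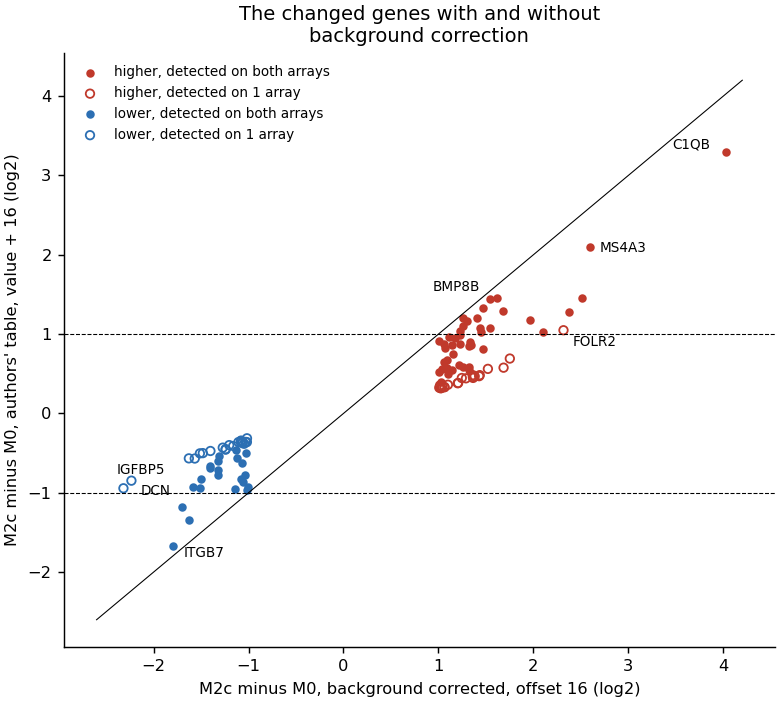
Each point is 1 of the 108 changed genes, with M2c minus M0 on the log2 scale after background correction on the x axis and in the authors' normalized table on the y axis, red for higher and blue for lower genes, open circles for genes detected on 1 array. All points lie on the same side of 0 on both axes, 19 higher and 3 lower genes stay past the dashed 2-fold lines, and FOLR2 is the 1 open circle among them.

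Background correction changed the size of the differences. Both sets of values come from the same 2 arrays, so their shared direction is no separate check. In the authors' table C1QB differed by 3.29, MS4A3 by 2.10 and ITGB7 by -1.67, each smaller in size than after background correction. CAV1 differed by 1.45 there, against 2.52, and IGFBP5 by -0.94, against -2.32. In the dimmest of the 5 level groups 0 of 22 rises and 0 of 20 falls passed 2-fold in that table, against 5 of 6 rises and 1 of 3 falls in the brightest. FOLR2, detected on M2c alone, still differed by 1.05 in the authors' table.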

How the data were processed

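Total RNA of 4 THP-1 macrophage groups was measured on Illumina bead arrays, 1 array each. The authors deposited non-normalized intensities with detection p-values, and a normalized intensity table, per the file headers. GenomeStudio is named in the submitters' processing notes. Columns were matched to groups by name, with 0 left over. The deposited non-normalized intensities were corrected with neqc of limma 3.58.1 in R 4.3.3 (negative-control signal inferred from the detection p-values, offset 16), quantile normalized over the 4 arrays and put on the log2 scale. The offset pulls differences of dim genes towards 0. The authors' normalized intensities, as log2 of value plus 16, served as an alternative, and others are given in the closing section.

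Of the probes, 30111 carried 1 symbol, 8 several and 17109 none, and for 30072 the symbol was brought to that of GRCh38.p14 RefSeq by Entrez identifier. Where a gene had several probes (6690 genes), the brightest on average represented it. Probes of near-identical genes (FCGR2B, HLA and metallothionein genes, ORM1, BMP8B, POTEE) may share signal. The bound of a gene detected on 1 array divides its bright value by its own dim value or, if higher, by the dimmest detected probe of the dim array, and holds for this normalization.

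The naming rule took genes past 2-fold under every treatment of the values and, of genes detected on both arrays, the 16 with the largest change each way. It added the 10 brightest each way that were detected on 1 array with a bound of at least 1.5-fold, the list members past 2-fold (or else the 2 most different and 2 brightest) and the IL-10 pathway genes. Named genes not described stayed within 2-fold. The comparison, the rule, the 27 gene lists and the 6 marker lists were chosen with earlier results of these data known. Calculations used pandas 2.3.3 in Python 3.11.15 and were tested on simulated data. With 1 array per group the number of arrays limits the precision, and no test was run.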

Additional observations from a re-analysis of the deposited data

Results flagged for a closer look

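Probes without a gene symbol in the annotation take no part in the comparison of genes, yet 22 of the 2941 detected on the M2c or M0 array were higher on M2c by 2-fold or more, and 12 were lower. Together they were 1.16% of the detected unnamed probes, against 1.12% of the named genes. Their identity was not analysed here.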

How the results depend on the processing

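After background correction 65 genes were higher and 43 lower on M2c. The authors' normalized intensities gave 19 and 3, no background correction 20 and 4, an offset of 50 in place of 16 gave 29 and 13, and genes detected on both arrays only gave 43 and 22. The share of changes that were rises was 60.2% in the main processing, 86.4% with the authors' intensities and 83.3% without background correction. A 1.5-fold rule gave 340 and 325 genes and a 3-fold rule 11 and 6. Scaling to a common median (92 and 52), normalizing the M2c and M0 arrays alone (86 and 56), the mean of a gene's probes (60 and 44), a detection p below 0.05 (66 and 43) and no detection filter (66 and 43) stayed within 1.5 times. No named gene past 2-fold turned direction. Of those within it, EEF1A1 (-0.06 to 0.13) and MAF (-0.06 to 0.19) changed sign with the mean of probes, and RPS10 (0.01 to -0.19) and RPS15 (0.02 to -0.07) with a common median. The 110 named genes include many that were within 2-fold from the start and could not drop under it. Of the named genes past 2-fold, 42 dropped under it with the authors' intensities. Only 22 stayed past it there, the 19 and 3 given above, so most of these changes were lost. The drops numbered 41 without background correction and 27 at the offset of 50. The mean of probes lost 3 (CD86, FCGR2B, MSR1) and a common median 1 (IL17RA, -0.99). VCX3A and C11orf96 instead reached 2-fold with a common median (1.07 and 1.06) and with the pair alone (1.06 and 1.05). No paired analysis was possible because each group has 1 array, and for the same reason no replicate could be left out. Signal over background limits the dim genes most.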

Other observations

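Further genes past 2-fold lie outside the naming rule and were picked with their values in view. DEFB1, an antimicrobial defensin, read 923.3 on M2c and 476.4 on M0 (1.06 on the log2 scale). AIM2, a sensor of cytosolic DNA, read 255.2 on M2c and 157.3 on M0 (1.14), and 1508.5 on M1. S100A12, a calcium-binding alarmin, read 343.2 on M2c and 558.3 on M0 (-1.04). CD84, an adhesion receptor of leukocytes, read 255.1 on M2c and 151.4 on M0 (1.26), and its other detected probe gave 0.64. GIMAP4, a GTPase of immune cells, read 488.8 on M2c and 239.5 on M0 (1.34).

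Among brighter genes near the 2-fold rule, CDCA7, a nuclear protein of dividing cells, read 1639.3 on M2c and 845.9 on M0 (1.01), and 137.1 on M1. POU4F2, a transcription factor known from retinal neurons, read 1182.9 on M2c and 583.4 on M0 (1.11). TMEM158, a membrane protein induced by Ras signalling, read 1805.9 on M2c and 3336.1 on M0 (-1.01). TMEM119, known as a marker of microglia, read 1067.9 on M2c and 1873.0 on M0 (-1.01). None of these 9 genes passed 2-fold in the authors' table.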
